A study of Mus musculus with 12 samples.

Results

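miR-326-3p (mmu-miR-326-3p in the table) is a mature microRNA (miRNA) cut from a hairpin inside the gene Arrb1. It was measured by small RNA sequencing of mouse liver, as 1 of 386 listed miRNA rows. Its row was found by name, and its other arm, miR-326-5p, is not among the listed rows. The row was chosen by its CPM difference between maternal diets in these same libraries. Its levels by maternal diet are therefore given as a description with no test.

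The livers came from 12 wild type male C57BL/6 mice at postnatal day 84, killed in a fasted state. The 4 groups, with 3 libraries each, crossed the mother's diet with the son's own diet from weaning on day 21. In OO, mother and son received the obesogenic diet (10% simple carbohydrates and 20% lipids, with sweetened condensed milk). OC had an obesogenic-fed mother and a control-fed son, CO a control-fed mother and an obesogenic-fed son. In CC, mother and son received control chow with 7% simple carbohydrates and 3% lipids. Litters in all groups were brought to 6 pups on day 3, and the labels do not name the litter of each son. One title number is common to OC replicate 2 and OO replicate 3, with no word on its meaning, so a shared mother is possible there. Replicate numbers only name libraries. The p-values rest on the spread among the 12 livers, which may share litters.

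A miRNA guides the silencing complex to messenger RNAs that pair with its seed, bases 2 to 8, and lowers their translation and stability. A miRNA in an intron is often, though not always, made from the transcript of its host gene. Arrb1 encodes β-arrestin 1, a scaffold that binds activated G protein-coupled receptors, stops their signalling and links them to internalisation. miR-326 is known from work on mouse and human cells as a repressor of the Hedgehog receptor component Smo, and as a miRNA of interleukin-17-producing T helper (Th17) cells.

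The mature sequences below are shown because the seed, in capitals, sets which miRNAs could share targets. They are RefSeq sequences on GRCm38.p6, 5′ to 3′.
miR-326-3p: cCUCUGGGcccuuccuccagu
miR-330-5p: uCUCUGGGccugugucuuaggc
miR-326-5p: gGGGGCAGggccuuugugaaggcg
Only miR-326-3p and miR-330-5p hold the seed CUCUGGG at bases 2 to 8 among the 1679 mouse mature miRNAs of the RefSeq table. Both are listed here. The pair is identical over 9 bases, positions 2 to 10, and differs after that. The seed letters occurred at no other place in the 320 listed rows that had a RefSeq sequence of the same name, and 66 rows had none.

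The hairpin is shown with miR-326-3p in capitals, to place the measured arm on its 3′ side.
Mir326: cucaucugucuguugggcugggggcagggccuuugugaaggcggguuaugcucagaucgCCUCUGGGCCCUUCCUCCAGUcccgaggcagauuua
In GENCODE vM21 on GRCm38, Mir326 occupies bases 99552269 to 99552363 of chromosome 7, on the plus strand. Arrb1 spans 99535466 to 99606771 on the same strand. The hairpin lies in intron 1 of 15 of the transcript with most introns (intron 99535799 to 99582260), and no exon of the 10 annotated Arrb1 transcripts overlaps it. The Mir330 hairpin lies 80.4 Mb away at 19181465 to 19181562, plus strand, inside Eml2, which encodes a microtubule-associated protein. It is intronic in 6 of 8 Eml2 transcripts and overlaps an exon of 1.

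Values are CPM, read counts that the authors scaled to the same total in every library. Arrb1 messenger RNA was not analysed here. The CPM value of 1 read in each library gave the read total used for scaling, called depth here. It ran from 5.45 to 22.2 M reads (M for mega), with a median of 13.2 M. The listed rows summed to 0.866% to 1.17% more than this total, so it need not equal the number of reads sequenced. Mean depth was 16.7 ± 4.80 M reads for sons of obesogenic-fed mothers and 10.6 ± 3.78 M reads for sons of control-fed mothers (SD, n = 6 each). The lowest depth was that of CO replicate 3. Sample title prefixes split fully with maternal diet, so a batch behind them and the maternal diet cannot be told apart.

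miR-326-3p stood at rank 183 of 386 by mean level, at 37.3 CPM. Next to it in mean level were miR-181a-2-3p (38.7 CPM), miR-3068-3p (37.7 CPM), miR-185-5p (37.2 CPM) and miR-541-5p (35.9 CPM). It rested on 111 to 999 reads per library, so counting alone gave a coefficient of variation from 3.16% to 9.49%. Such errors and the intervals plotted cover counting only, since sequencing reads are not independent molecules.

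miR-326-3p was highest in OO livers and lower in each of the other groups. In OO it stood at 53.5, 46.4 and 47.6 CPM in replicates 1, 2 and 3. In OC it stood at 41.0, 36.3 and 45.5 CPM. In CO it stood at 33.4, 28.9 and 20.4 CPM, and in CC at 31.7, 32.3 and 30.6 CPM. The OO, OC and CC libraries formed non-overlapping ranges in that order, while the CO range spread around that of CC. All 3 OO libraries lay above all 3 OC libraries for 10.4% of all rows. The same held of OC over CC for 4.4%, and no share was worked out for the joint order. Its rank within a library was between 159 and 171 in OO, 168 and 179 in OC, 186 and 195 in CO, and 187 and 188 in CC.

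**Figure D1:**
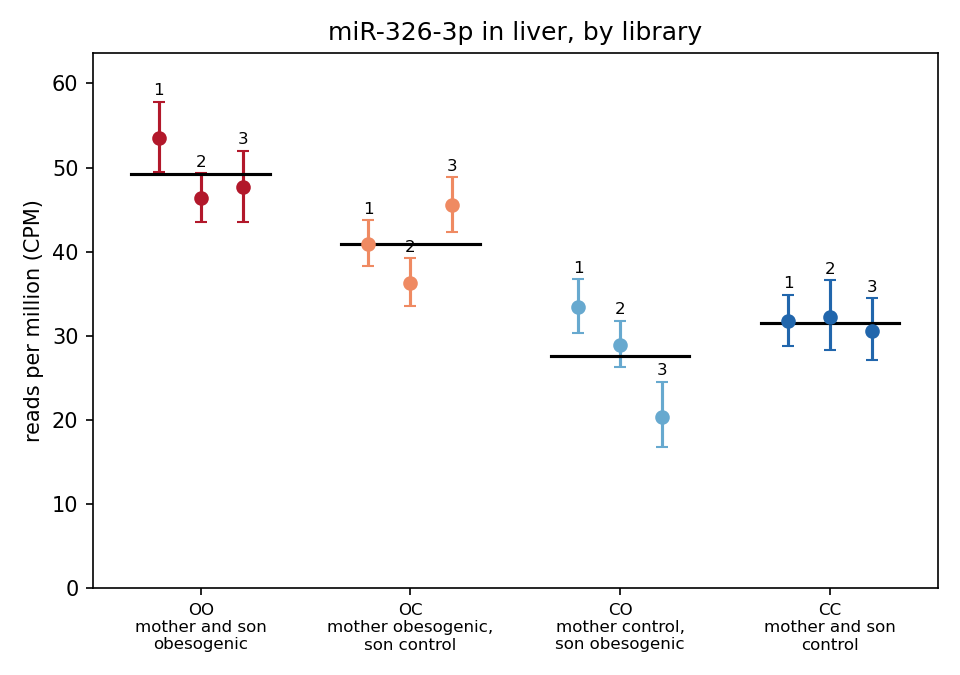
miR-326-3p in each liver library (y axis, CPM) by diet group (x axis). Points are libraries with their replicate number, bars are exact 95% Poisson intervals from read counts, and black lines are group means. The 6 libraries with obesogenic mothers sit between 36.3 and 53.5 CPM, above the 6 with control mothers, at 20.4 to 33.4 CPM.

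Group means were 49.2 ± 3.81 CPM in OO, 40.9 ± 4.61 CPM in OC, 27.6 ± 6.64 CPM in CO and 31.5 ± 0.837 CPM in CC (SD, n = 3 each). OO exceeded OC by 8.27 CPM, where the pooled SD of the pair was 4.23 CPM, and the nearest libraries of the pair were 46.4 and 45.5 CPM. CO and CC overlapped, and CO minus CC was -3.95 CPM with a pooled SD of 4.73 CPM. The 3 CC libraries varied by 2.65% of their mean, less than the counting error of each, whereas CO varied by 24.1%. Without CO replicate 3, the CO mean was 31.2 CPM over the other 2 libraries, close to CC. In bulk liver, fewer cells of a type and less RNA per cell cannot be told apart.

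Over both diets of the sons, the level of miR-326-3p was 45.1 ± 5.90 CPM for obesogenic-fed mothers and 29.6 ± 4.75 CPM for control-fed mothers (SD, n = 6 each). The log2 change on the log2(CPM + 1) scale was 0.60 (SE 0.122), a 1.51-fold higher level. This is the contrast that chose the row, so it carries no test here. Without CO replicate 3, the mean with control mothers was 31.4 ± 1.71 CPM (SD, n = 5) and the log2 change was 0.50. All 6 libraries with obesogenic mothers lay above all 6 with control mothers for 3 of 386 rows, 0.777%. The other two were miR-467a-5p and miR-467b-5p, which have identical values in every library, at a mean of 1.91 CPM. The median log2 change of all rows was 0.08, and that of miR-326-3p lay 0.52 above it. The order OO above OC above every library of both groups with control mothers held for 1 row, 0.259%, which was miR-326-3p itself. This order contains the contrast that chose the row, so the count is a description and no measure of rarity. Its step from OO to OC rested on nearest libraries at 46.4 and 45.5 CPM.

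**Figure D2:**
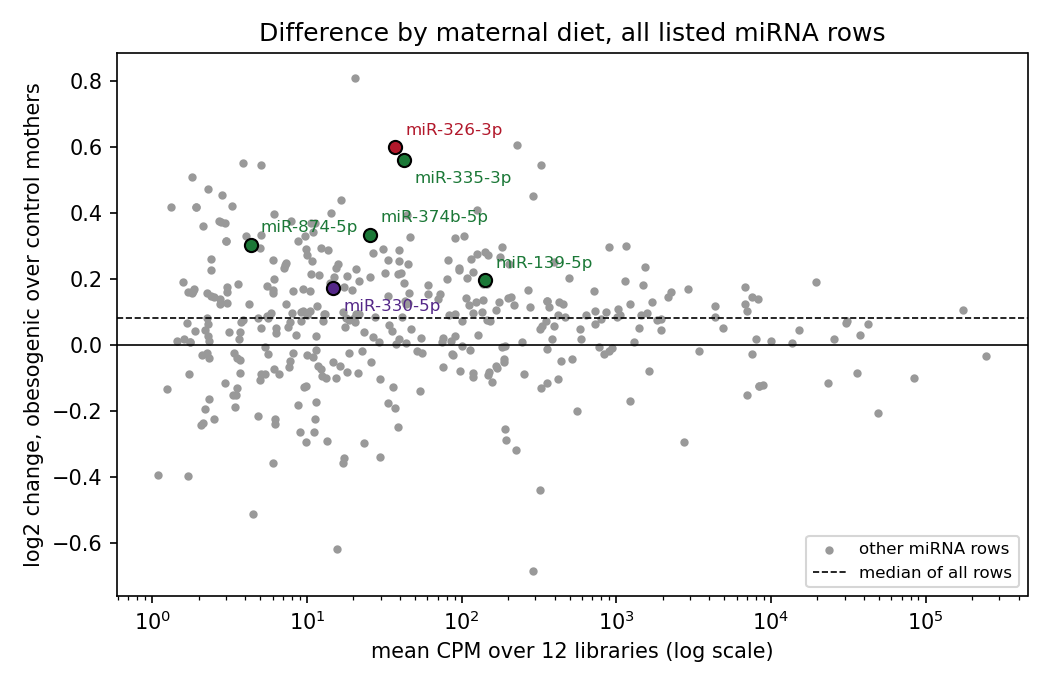
Log2 change by maternal diet, averaged over the sons' diet (y axis), against mean CPM on a log scale (x axis), for all 386 rows. miR-326-3p (red) lies at 0.60, its seed partner miR-330-5p (purple) at 0.17, and rows with a pattern like it are in green. The dashed line is the median of all rows, 0.08.

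Rows at a like level had a smaller median difference. Since miR-326-3p was chosen for its difference, its place above that median was fixed by the choice and is a description. The 60 other rows with a mean within 2-fold of miR-326-3p, from 18.7 to 74.6 CPM, had a median log2 change of 0.09 and a range from -0.34 to 0.81. The highest was miR-582-3p. The residual SD of miR-326-3p on the log2 scale was 0.21, and the median over those rows was 0.24. The G and C bases made up 66.7% of miR-326-3p, against a median of 47.8% over the 320 rows with a sequence. The 16 rows at least as rich in G and C, with miR-326-3p among them, had a median log2 change of 0.16.

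Split by the sons' own diet, the log2 change by maternal diet was positive in both strata, with unequal sizes. In obesogenic-fed sons, OO minus CO was 0.84 on the log2 scale (SE 0.173), or 0.70 above the median of all rows. All 3 OO libraries lay above all 3 CO libraries, as for 16.3% of rows. In control-fed sons, OC minus CC was 0.36 (SE 0.173), or 0.33 above the median of all rows. With log2 depth as a covariate OC minus CC was 0.18 (SE 0.198), below its own SE. All 3 OC libraries lay above all 3 CC libraries, as for 4.4% of rows. The difference between these log2 changes was 0.48 (SE 0.245), where the median of all rows was 0.13, and it was 0.28 without CO replicate 3. These comparisons share libraries with the one that chose the row and are given as values. CO replicate 3 moved OO minus CO to 0.64 when it was left out.

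The sons' own diet, averaged over maternal diet, was not used to choose the row and was tested. The level of miR-326-3p was 38.4 ± 12.8 CPM in sons on the obesogenic diet and 36.2 ± 5.94 CPM in sons on control chow (SD, n = 6 each). The log2 change was 0.024 (SE 0.122), with a 95% interval from -0.24 to 0.29, and it did not pass by limma (adjusted p = 0.94 over 386 rows). In this contrast 3 of 386 rows passed, 0.777%, all of them lower in obesogenic-fed sons at the deposited scaling. With median-of-ratios factors 8 passed, 2 higher and 6 lower. Within each maternal diet the values had opposite signs. OO minus OC was 0.26 (SE 0.173), and CO minus CC was -0.21 (SE 0.173), or -0.019 without CO replicate 3. All 3 OO libraries lay above all 3 OC libraries for 10.4% of rows, miR-326-3p included. For both diets together, OO minus CC was 0.62 (SE 0.173), 0.57 above the median of all rows, and all 3 OO libraries lay above all 3 CC libraries, as for 14.0% of rows.

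miR-330-5p, which carries the same seed from the Eml2 hairpin, was less abundant and showed no difference past the test. It stood at 14.1, 13.9 and 19.7 CPM in OO, and at 16.0, 15.6 and 14.2 CPM in OC. In CO it stood at 16.4, 14.6 and 10.5 CPM, and in CC at 11.8, 13.5 and 15.8 CPM. The ranges of all 4 groups overlapped. Its mean was 15.6 ± 2.18 CPM for obesogenic-fed mothers and 13.8 ± 2.31 CPM for control-fed mothers (SD, n = 6 each). The log2 change was 0.17 (SE 0.137), with a 95% interval from -0.13 to 0.47, and did not pass by limma (adjusted p = 0.70). By maternal diet 0 of 386 rows passed by limma (0.0% in either direction) and 0 by limma-voom, while 27 rows, 6.99%, had a limma p under 0.05 before adjustment. For the sons' diet the log2 change of miR-330-5p was 0.020 (SE 0.137, limma adjusted p = 0.96).

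The ratio of miR-326-3p to miR-330-5p does not depend on how a library was scaled. It was 3.79, 3.34 and 2.42 in OO, and 2.56, 2.33 and 3.21 in OC. It was 2.04, 1.98 and 1.95 in CO, and 2.69, 2.39 and 1.94 in CC. The OO and CO ratios did not overlap, whereas the OC and CC ratios did. For single rows, all 3 OO libraries lay above all 3 CO libraries in 16.3% of cases, and no such share was worked out for ratios. The ratio, and the share and sum given below, hold the row chosen by maternal diet, so they are descriptions with no test. CO replicate 3, where both miRNAs were low, had nearly the same ratio as the other CO libraries. miR-326-3p held 74.2 ± 3.76% of the summed level of the pair with obesogenic mothers and 68.1 ± 2.87% with control mothers (SD, n = 6 each). Together, the miRNAs with this seed summed to between 51.9 and 67.7 CPM with obesogenic mothers and between 30.8 and 49.9 CPM with control mothers. The opposite arm, miR-330-3p, has another seed and was near the lower end of the table, at 2.18 CPM on average and 5 to 62 reads per library. It averaged 2.35 ± 0.464 CPM in OO, 2.01 ± 0.480 CPM in OC, 1.44 ± 0.483 CPM in CO and 2.92 ± 0.532 CPM in CC (SD, n = 3 each), an order unlike that of miR-326-3p. Its log2 change was 0.045 by maternal diet (limma adjusted p = 0.92) and -0.27 by the sons' diet (limma adjusted p = 0.42).

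**Figure D3:**
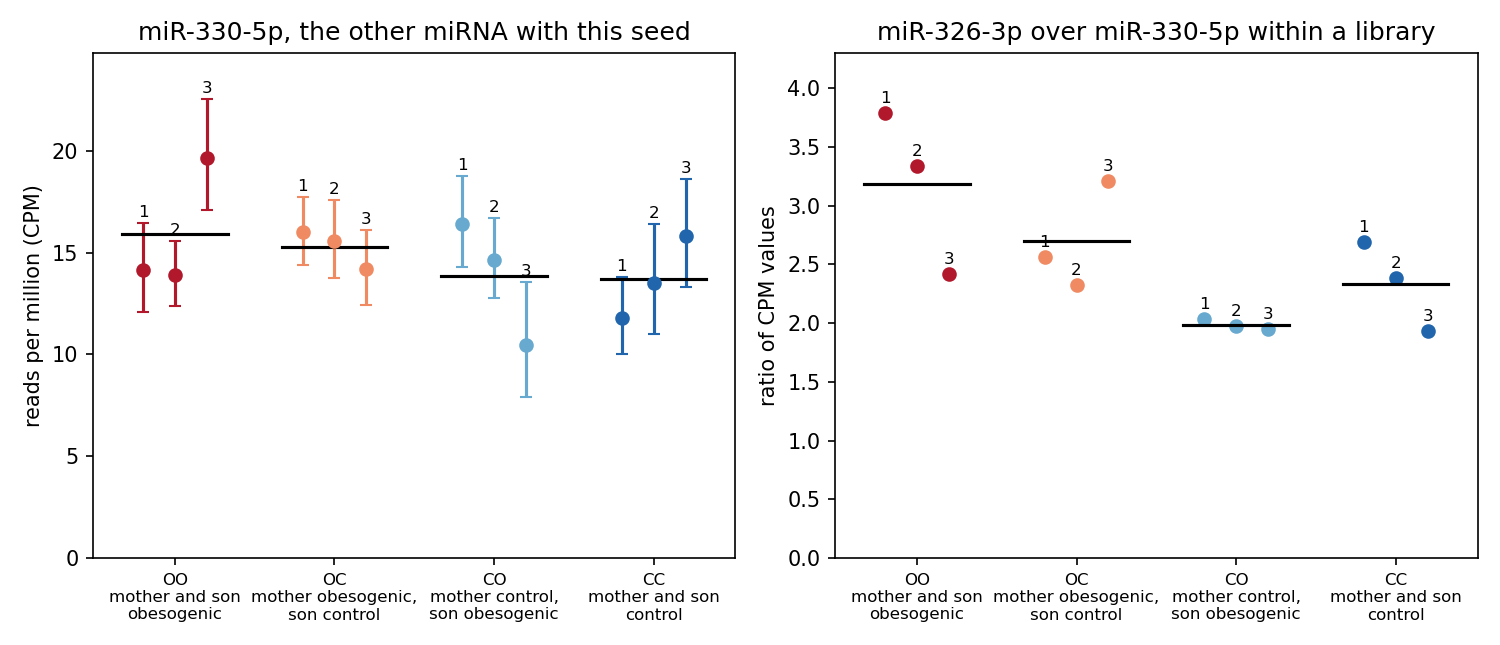
Left, miR-330-5p in each library (CPM) with exact 95% Poisson intervals; right, the ratio of miR-326-3p to miR-330-5p within each library. Points carry replicate numbers and black lines are group means. miR-330-5p ranges overlap between groups, while the ratio lies between 2.42 and 3.79 in OO and between 1.95 and 2.04 in CO.

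Library depth moved with maternal diet. For miR-326-3p over the 12 libraries, Pearson's r of log2(CPM + 1) with log2 depth was 0.60, and 0.51 in deviations from group means, as a description. With log2 depth as a covariate, the averaged log2 change by maternal diet was 0.46 (SE 0.142), OO minus CO was 0.75 (SE 0.167) and OC minus CC was 0.18, against 0.36 without it. At like depth, OO replicates 1 and 3 (12.0 and 10.5 M reads) had 53.5 and 47.6 CPM. CO replicate 1 (13.1 M reads) had 33.4 CPM, and CC replicate 1 (13.3 M reads) had 31.7 CPM. No OC library was as shallow as these. The CPM values of these libraries come from the contrast that chose the row, so they are a description only. The part of depth in the difference was not tested, since depth moved with maternal diet and a covariate cannot separate them.

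**Figure D4:**
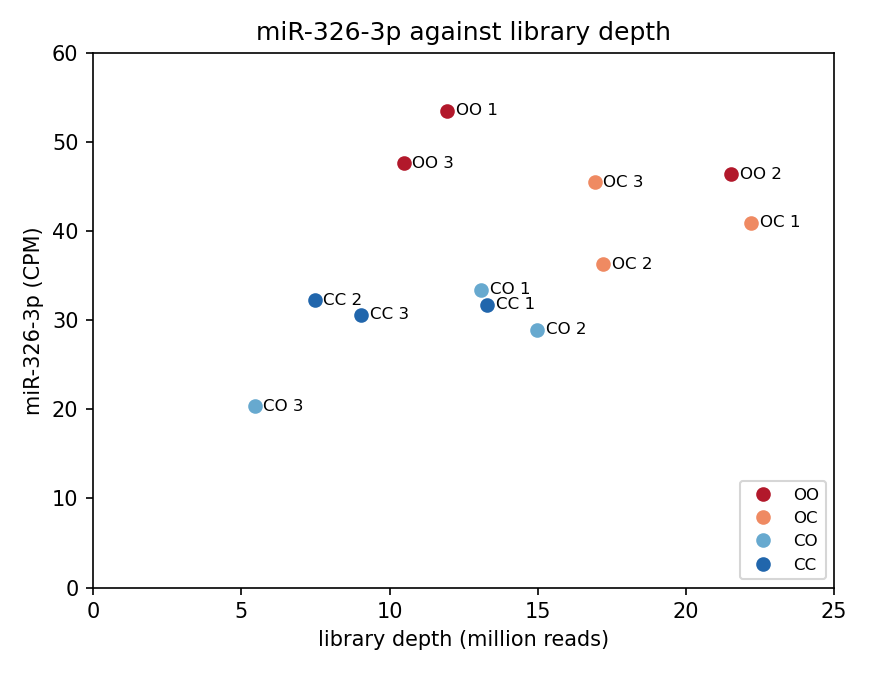
miR-326-3p (y axis, CPM) against library depth in M reads (x axis), each point a library named by group and replicate. OO replicates 1 and 3 lie near 50 CPM at 12.0 and 10.5 M reads. CO replicate 1 and CC replicate 1 lie near 32 CPM at 13.1 and 13.3 M reads, and CO replicate 3 is both the shallowest and the lowest. Depth moved with maternal diet, so the plot does not separate them.

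Of the miRNAs tied to the same pathways 0 passed by maternal diet, as did 0 of 386 rows (0.0%), so the count says nothing particular to them. miR-324-5p and miR-125b-5p are known, with miR-326, as repressors of Hedgehog signalling in cerebellar progenitor cells. miR-324-5p averaged 6.66 CPM for obesogenic-fed mothers and 5.40 CPM for control-fed mothers (log2 change 0.26, SE 0.149, limma adjusted p = 0.63). miR-125b-5p averaged 936 ± 95.2 CPM for obesogenic-fed mothers and 944 ± 127 CPM for control-fed mothers (SD, n = 6 each), a log2 change of -0.0088 (limma adjusted p = 0.96).

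A list of 10 other miRNAs known from Th17 cells or inflammation had 0 members past the test by maternal diet, beside 0.0% of all rows. Of these, 8 had a positive log2 change, with a median of 0.20, beside 265 of 386 rows with a positive change and a median of 0.08. By the sons' diet 1 of the 10 passed, miR-182-5p, which fell by 0.98 on the log2 scale (limma adjusted p = 0.0074), beside 0.777% of all rows. The members with a negative log2 change by maternal diet were miR-21a-5p, the most abundant of the list (-0.21), and miR-181c-5p (-0.10). Of 36 other miRNAs hosted in introns, such as miR-335-3p in Mest and miR-378a-3p in Ppargc1b, 0 passed in either contrast and 33 had a positive change by maternal diet. Scaling by median-of-ratios factors left 28 of the 36 positive, and 213 of all rows.

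Marker lists of liver cell types, and a list of brain miRNAs, were set beside miR-326-3p, since whole liver holds several cell types. All 7 leukocyte markers, which include miR-142-5p, miR-223-3p and miR-150-5p, had a positive log2 change by maternal diet, from 0.12 to 0.55, as did 265 of 386 rows, with 0 past the test by limma in both. Their summed level ranged from 2975 to 4606 CPM with obesogenic and from 2289 to 3541 CPM with control mothers, so the libraries overlapped. The 4 erythroid marker rows all had a negative change, with a median of -0.29 where that of all rows was 0.08. They summed to between 2943 and 5242 CPM with obesogenic and between 2862 and 8999 CPM with control mothers. The hepatocyte list, led by miR-192-5p and with miR-122-5p in it, had a median of -0.067 over 8 rows. Its members differed in sign, and 3 of the 8 were positive: miR-194-5p (0.18), miR-802-5p (0.25) and miR-215-5p (0.26). The list summed to between 350151 and 381447 CPM with obesogenic and between 370065 and 422598 CPM with control mothers, with miR-192-5p alone at a mean of 246349 CPM. Of the brain list, 7 of 8 members were listed, with a median of 0.17, and the neuronal miR-124-3p was not. Their sum ranged from 178 to 434 CPM with obesogenic and from 151 to 257 CPM with control mothers. OO replicate 3 held 281 CPM of miR-149-5p alone, against 98.3 and 80.1 CPM in OO replicates 1 and 2. The 5 stellate and mesenchymal markers had a median of 0.20, and 4 were positive. The most abundant, miR-143-3p at a mean of 36163 CPM, was at -0.083. Sums of the list ran from 33759 to 39666 CPM with obesogenic and from 31521 to 48309 CPM with control mothers. The endothelial list was the 2 arms of miR-126, both measured, with a median of 0.14. These arms summed to between 23722 and 28052 CPM with obesogenic and between 15584 and 27100 CPM with control mothers. No member of these lists passed by limma in this contrast, nor did any of the 386 rows (0.0%), and no listed row was at 0 in any library. The part of these cell types in the level of miR-326-3p was not tested.

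The rows most like miR-326-3p over the 12 libraries were found by Pearson's r on log2(CPM + 1), as a description. The likeness is shared with group, depth and library, and the median r over the 385 other rows was 0.25. The highest were miR-374b-5p and miR-374c-5p, both at r = 0.86, then miR-335-3p (r = 0.86), miR-139-5p (r = 0.81) and miR-874-5p (r = 0.81). Spearman's rho for the same rows was 0.79, 0.85, 0.77 and 0.70. They were picked for their r and carry no test. Their mature sequences, where the RefSeq table holds them, are shown to compare seeds.
miR-374b-5p: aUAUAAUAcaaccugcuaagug
miR-374c-5p: aUAAUACAaccugcuaagug
miR-335-3p: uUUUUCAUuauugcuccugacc
miR-139-5p: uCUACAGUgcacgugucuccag
None of these seeds is that of miR-326-3p. miR-374b-5p and miR-374c-5p come from opposite strands of the X chromosome, share a run of 20 bases and had identical values in all 12 libraries, so they count as 1 measurement. miR-335-3p lies in an intron of Mest, an imprinted gene, on chromosome 6.

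miR-139-5p is also the listed miRNA with the nearest hairpin, 1.92 Mb from Mir326 on the same strand of chromosome 7, in an intron of the phosphodiesterase gene Pde2a. Its OO libraries had 159, 154 and 153 CPM, and it averaged 148 ± 19.4 CPM in OC, 121 ± 10.2 CPM in CO and 144 ± 6.14 CPM in CC (SD, n = 3 each). Its log2 change by maternal diet was 0.20 (SE 0.0878), smaller than the 0.60 of miR-326-3p. The ratio of miR-326-3p to miR-139-5p was 0.298 ± 0.0286 with obesogenic and 0.223 ± 0.0273 with control mothers (SD, n = 6 each). It too holds the chosen row and carries no test.

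miR-335-3p stood at 50.9, 57.7 and 64.5 CPM in OO and 50.1, 41.6 and 40.4 CPM in OC. It stood at 35.4, 38.6 and 25.3 CPM in CO and 31.0, 42.7 and 32.1 CPM in CC. OO was above every other library here, though the nearest OO and OC libraries were 50.9 and 50.1 CPM, while OC and CC overlapped. All 3 OO libraries lay above all 3 of OC for 10.4% of rows, of CC for 14.0% and of CO for 16.3%. No share was worked out for OO above all the other groups at once. In deviations from group means, r with miR-326-3p was 0.80 for miR-374b-5p, 0.46 for miR-335-3p, 0.63 for miR-139-5p and 0.84 for miR-874-5p. Within groups, r was lower for miR-335-3p than over all libraries, and within 0.1 of that value for miR-374b-5p and miR-874-5p. Without CO replicate 3 and OO replicate 1, the lowest and the highest for miR-326-3p, r over the other 10 was 0.62, 0.80, 0.66 and 0.62 for the same rows. miR-330-5p, with the shared seed, was at r = 0.55 and rank 88. The lowest r were those of miR-7a-5p (-0.72), miR-148a-5p (-0.72) and let-7g-5p (-0.68), which were -0.37, -0.46 and -0.20 without the same pair of libraries. These orders depended on scaling. With median-of-ratios factors, miR-7a-5p, miR-148a-5p and let-7g-5p were at -0.68, -0.62 and -0.68, and miR-551b-3p was the lowest (-0.81). Under the same factors, r was 0.81 for miR-374b-5p, 0.80 for miR-335-3p, 0.66 for miR-139-5p (rank 7) and 0.73 for miR-874-5p.

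**Figure D5:**
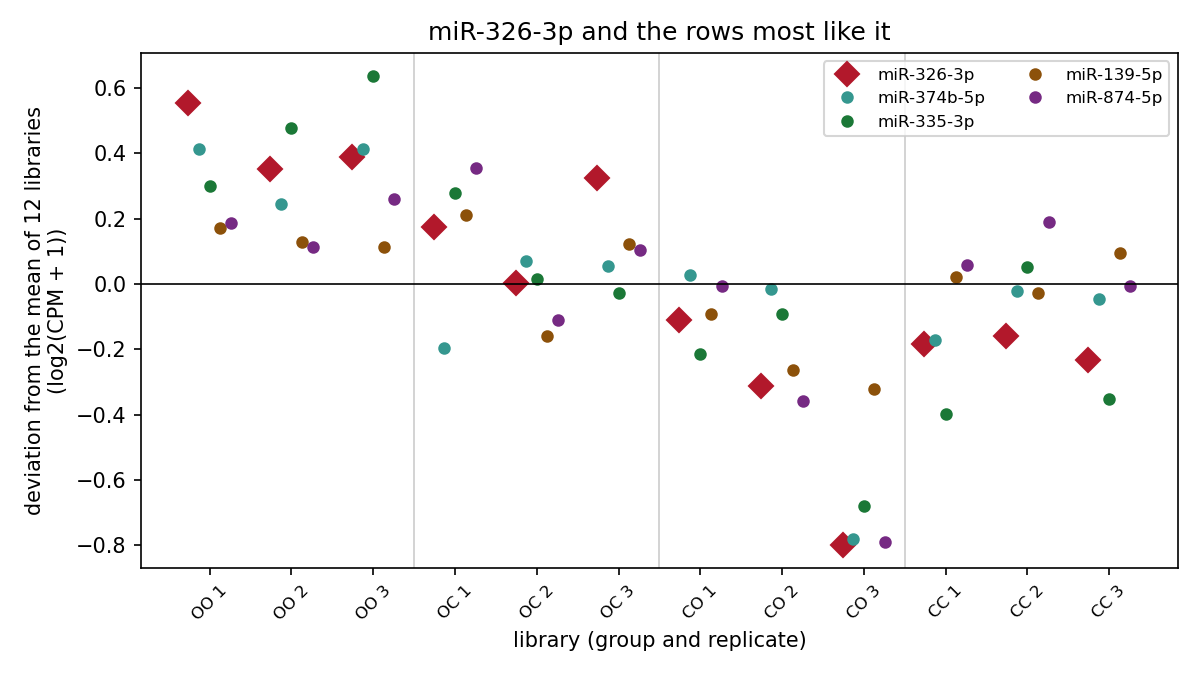
Deviation of each library from the mean of all 12 on the log2(CPM + 1) scale (y axis), by library (x axis), for miR-326-3p (diamonds) and the rows with the highest r to it (circles; miR-374c-5p equals miR-374b-5p). In CO replicate 3 all lie below their mean, and in the 3 OO libraries all lie above it.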

How the data were processed

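Per the labels' protocols, liver RNA was purified on miRNeasy columns and TruSeq small RNA libraries were sequenced. Per the submitters' processing notes, Bowtie 1.2.3 was used. The sources used here do not give the genome build, miRNA reference or counting rule. The authors deposited CPM for 386 rows in 12 columns, each tied to a sample by the column number in its description. In each column 100% of values were whole multiples of 1 step (tolerance 0.001 reads), and the step gave the depth. Columns summed to 0.866% to 1.17% above the CPM total.

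The test was limma 3.58.1 (R 4.3.3), two-sided, with trend, fitted to log2(CPM + 1) of every row by group, with Benjamini-Hochberg adjustment within a contrast and a threshold of 0.05. It was tested on simulated data. A log2 change on this scale understates that of low rows. A separate search for the step among low values did not recover whole reads, so no negative binomial count model was run, and depths, read numbers and Poisson intervals rest on the largest step that fitted every value. limma-voom, on the reads behind the CPM, was added after seeing the data, as were older names for 7 list members. Members and lists were chosen with earlier results of these data known. Named rows are miR-326-3p, its seed partner and that hairpin's other arm, the 5 most and 3 least alike by r, the 2 rows on either side in level, the nearest hairpin within 10 Mb and, of each list, leading or passing members, of which only some are printed. Python 3.11.15, pandas 2.3.3 and numpy 2.4.6 were used.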

Additional observations from a re-analysis of the deposited data

Results flagged for a closer look

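In CO replicate 3, miR-326-3p stood at 20.4 CPM, far below the next lowest library with control mothers, at 28.9 CPM. That gap was 0.655 of the range of the 6 libraries, above the critical value of 0.625 in Dixon's test. In the set of obesogenic-fed sons, where it was also the lowest, its gap was 0.258 of the range. The same library was the shallowest, at 5.45 M reads, and its miR-330-5p was also the lowest of the 6, at 10.5 CPM.

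In OO replicate 3, miR-330-5p stood at 19.7 CPM, above the next highest library with obesogenic mothers, at 16.0 CPM, a gap of 0.635 of the range. In the set of obesogenic-fed sons its gap was 0.354 of the range. miR-326-3p in that library, at 47.6 CPM, lay between the other OO libraries. Each flagged set was 1 of 12 sets of 6 libraries examined, and chance marks about 1 in 20 such sets. The sets share libraries, so they are not independent.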

How the results depend on the processing

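For miR-326-3p the log2 change by maternal diet stayed between 0.46 and 0.61 under 10 other settings and between 0.50 and 0.67 on leaving out each library in turn. OO minus CO stayed between 0.64 and 0.99 and OC minus CC between 0.18, with log2 depth as a covariate, and 0.44. The difference between them was 0.24 with sample quality weights, which gave CO replicate 3 the least weight, and 0.28 to 0.63 on leaving out libraries. By the sons' diet the log2 change of miR-326-3p was -0.0052 and that of miR-330-5p -0.0090 relative to hepatocyte markers. Leaving out libraries gave -0.050 to 0.12 for miR-326-3p and -0.057 to 0.11 for miR-330-5p, with limma adjusted p from 0.48 upward in every setting run. miR-330-5p by maternal diet ranged from 0.012 (sample quality weights) to 0.24 (without CO replicate 1), with limma adjusted p from 0.54 to 0.97. By maternal diet 1 row passed with sample quality weights, beside 0 in the main fit. It was miR-326-3p, the row that this contrast chose, so its passing is no test and no separate support. With log2 depth as a covariate 1 row passed, miR-3061-3p. By the sons' diet 7 rows passed with TMM factors (2 higher, 5 lower), 8 with median-of-ratios factors (2 higher, 6 lower), 12 with sample quality weights (3 higher, 9 lower) and 3 to 5 on leaving out libraries, the 5, all lower, being without OC replicate 2. Without CO replicate 3, 1 of 4 was higher. The cause was not tested. No paired analysis was possible because the labels give no replicate numbers and only 1 title number common to 2 groups (OC replicate 2 and OO replicate 3), fewer than the 2 pairs a block needs. edgeR and DESeq2 on recovered reads were not run. With 3 libraries per group, replicate spread limits the precision.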
